A study of Mus musculus with 4 samples.

Results

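The miR-125 family of the mouse comprises the miRNAs cut from 3 hairpin genes, Mir125a, Mir125b-1 and Mir125b-2. It was followed here in activated CD4+ T cells through 5 mature names: mmu-miR-125a-5p, mmu-miR-125a-3p, mmu-miR-125b-5p, mmu-miR-125b-1-3p and mmu-miR-125b-2-3p, written below without the species prefix. The members were chosen by name and not by their values, and 4 of the 5 had a row among the 1073 miRNAs of the authors' deposited table. miR-125b-1-3p had none and is not analysed here. Small RNA was sequenced from wild type CD4+ T cells of mouse spleen, labelled naive, that had been transfected with an agent named ASO (2 samples) or with its control named CRO (2 samples). All 4 samples were then activated with antibodies to CD3 and CD28 for 48 h, so the controls were transfected and activated too, and no unstimulated group is among them. The labels give no target for ASO, no expansion of either name and no age or sex. Nor do they tell whether replicate samples are different mice, cultures or only repeat libraries, so the spread that p-values measure may be technical.

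A miRNA is a short RNA that guides an Argonaute protein to messenger RNAs, mainly by pairing through its seed, the bases near its 5′ end, and lowers their output. The miR-125 family is the vertebrate counterpart of lin-4 of Caenorhabditis elegans, the founding miRNA. In mouse blood cells, miR-125b and miR-125a are known for their high levels in stem and progenitor cells. miR-125b is known as a miRNA of naive CD4+ T cells, where in human cells it restrains genes of effector differentiation, and miR-125a is known for its role in regulatory T cells. Each miR-125 gene lies near genes of the miR-99/miR-100 and let-7 families.

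The mature sequences are shown because the members' kinship, and the way reads can be assigned to them, lies in their letters. They are taken from RefSeq (GRCm38.p6), which held all 5 members, and are written 5′ to 3′ with the seed, bases 2 to 8, in capitals.
miR-125a-5p: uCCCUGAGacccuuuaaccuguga
miR-125b-5p: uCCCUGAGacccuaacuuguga
miR-351-5p: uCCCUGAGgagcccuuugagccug
miR-125a-3p: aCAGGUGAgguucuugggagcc
miR-125b-1-3p: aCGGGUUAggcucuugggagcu
miR-125b-2-3p: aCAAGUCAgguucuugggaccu
miR-125a-5p is 24 nucleotides long and miR-125b-5p is 22. They are identical over the first 13 and the last 5 bases and differ in between. miR-351-5p, which is not a member by name, carries the same seed and shares the first 8 bases with miR-125a-5p. Of 1679 mature names in RefSeq, 5 carried this seed, and 3 of those had a row in the table. The 3p members hold 3 different seeds, none of them shared with another mature name.

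In GRCm38, miR-125a-5p lies at chr17:17830817-17830840 on the plus strand and miR-125a-3p at chr17:17830855-17830876. miR-125b-5p is encoded at 2 places, chr9:41581940-41581961 in Mir125b-1 and chr16:77646279-77646300 in Mir125b-2, both on the plus strand. Its reads therefore cannot be assigned to a gene, whereas miR-125b-2-3p, at chr16:77646318-77646339, comes from Mir125b-2 alone. By the GENCODE M21 annotation, Mir125a overlaps an exon of the protein-coding gene Spaca6 on the same strand. Mir125b-2 lies in an intron of the non-coding gene Mir99ahg, and Mir125b-1 lies in introns of the non-coding genes 3110039I08Rik and Gm49317 and overlaps an exon of the sense intronic gene Gm28119, all on its own strand. The hairpin of Mir125a, with both arms in capitals, shows how the abundant 5p arm and the scarce 3p arm come from 1 precursor.
Mir125a: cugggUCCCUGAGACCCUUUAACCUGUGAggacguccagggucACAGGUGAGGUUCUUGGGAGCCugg

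The table holds the authors' mean of normalized counts for each group. Its digits sufficed to recover the read counts of both libraries behind each mean, for all 1073 miRNAs. Which recovered library belongs to which sample is unknown, and the letters a and b only tell libraries of a group apart. Total counts were 10192717 and 10483405 in ASO and 5617699 and 3300457 in CRO, so CRO library b was the shallowest. The median absolute log2 ratio between libraries of a group, over 273 miRNAs whose base mean (the mean normalized count over all libraries) reached 100, was 0.23 for ASO and 0.39 for CRO. By the mean of each group the most counted miRNA was miR-155-5p, which T cells induce on activation. In CRO library a, miR-21a-5p stood above it, with 774647 reads against 667895. The blood cell miRNAs miR-142a-3p and miR-142a-5p together held 11.4% to 13.8% of normalized counts, and the activation list of miR-155-5p, miR-21a-5p and miR-146a-5p held 25.2% to 29.5%. The naive T cell list of miR-150-5p, miR-342-3p and miR-181a-5p held 4% and 2.76% in ASO libraries a and b, and 3.01% and 6.36% in CRO libraries a and b. Lists for other cells were smaller: myeloid 0.0769% to 0.122%, epithelial 0.0627% to 0.0917%, endothelial 0.0236% to 0.0317% and erythroid 0.0178% to 0.0406%. Below these stood the neural list, 0.00203% to 0.00223%, the stromal list, 0.00105% to 0.00187%, and the liver miRNA miR-122-5p, 0.000424% to 0.0012%. miR-214-3p of the stromal list and miR-124-3p of the neural list had no row, and miR-145a-5p was at 0 in both CRO libraries.

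miR-125a-5p was the leading member, and 0 of the 4 passed the threshold of 0.05 on the adjusted p in the authors' deposited table. The background was 13 of 1073 miRNAs, 1.21%, of which those lower in ASO made up 1.12% and those higher 0.0932%. An unadjusted p under 0.05 in the authors' deposited table was reached by 0 of the 4 members against 2.8% of all miRNAs, 1.86% being lower in ASO. In limma fits on the recovered libraries 0 of 3 members passed the adjusted p, against 3.11% of 482 miRNAs. The mean of each member was lower in ASO than in CRO, by log2 values from -0.05 to -1.84. A mean lower in ASO was found for 46.9% of the 482 miRNAs that reached a base mean of 10, whose median log2 ratio of ASO over CRO was 0.04. 3 of the 4 members reached that base mean. The order of the levels was miR-125a-5p, miR-125b-5p, miR-125a-3p and then miR-125b-2-3p in all 4 libraries. Each read of a small RNA library spans a whole mature miRNA, so levels were set side by side with no length correction. How well each miRNA is captured in a library was not measured, so levels of different miRNAs compare reads and not molecules.

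miR-125a-5p, the guide strand of Mir125a, had 1845 and 1575 normalized counts in ASO libraries a and b. In CRO libraries a and b it had 1426 and 2495. The highest and the lowest library were both CRO, with both ASO libraries between them, so the groups overlapped. The reads behind these values numbered 3001, 2239, 1115 and 1389 in the same order, and exact Poisson intervals (95%, counting error only) put CRO library b at 2366 to 2630, above the other libraries. The authors' deposited table gave means of 1710 (ASO) and 1961 (CRO) and a log2 ratio of ASO over CRO of -0.20, with p = 0.83 and adjusted p = 1. From the recovered libraries the SD was 191.3 in ASO and 756 in CRO (n = 2 each). In a limma fit on log2(normalized count + 1) over 482 miRNAs the difference was -0.15 ± 0.31 (SE), with an unadjusted 95% interval from -0.86 to 0.57 and an adjusted p of 0.87. That interval includes changes in either direction. The direction rested on CRO library b, without which the limma difference was 0.26. miR-125a-5p ranked 102nd of 1073 miRNAs in ASO and 99th in CRO.

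**Figure D1:**
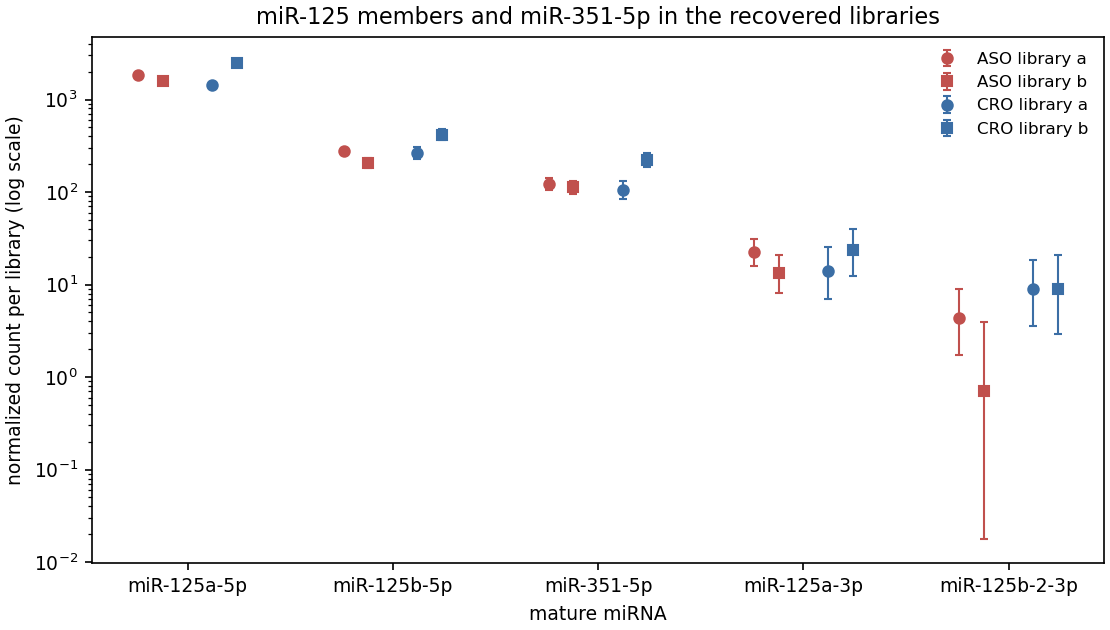
Normalized counts (log axis) of the 4 miR-125 members and of miR-351-5p, which shares their 5p seed, in each recovered library, with exact Poisson 95% intervals as bars. CRO library b is highest for miR-125a-5p (2495), miR-125b-5p (418.6) and miR-351-5p (222.8), and miR-125b-2-3p rests on 1 to 7 reads per library.

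miR-125b-5p, the guide strand made by both miR-125b genes, had 274.9 and 206.1 normalized counts in ASO libraries a and b. The CRO libraries a and b gave 264.7 and 418.6. CRO library b stood above all others, and CRO library a lay between the ASO libraries, so the groups overlapped here too. They were counted from 447, 293, 207 and 233 reads. The authors' deposited table gave means of 240.5 (ASO) and 341.6 (CRO) and a log2 ratio of -0.51, with p = 0.359 and adjusted p = 1. The SD was 48.64 in ASO and 108.8 in CRO (n = 2 each). The limma difference was -0.48 ± 0.31 (SE), with an unadjusted 95% interval from -1.19 to 0.23 and an adjusted p of 0.60. The sign stayed negative when any 1 library was left out, at -0.81 to -0.15, and the adjusted p of limma then ran from 0.052, without CRO library a, to 1. The value nearest to 0 was that without CRO library b. miR-125b-5p ranked 211th in ASO and 188th in CRO.

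miR-125a-3p, the passenger strand of Mir125a, had 22.75 and 13.36 normalized counts in ASO libraries a and b. Its CRO values were 14.07 and 23.35. Each group held 1 higher and 1 lower library at nearly the same levels. The reads numbered 37, 19, 11 and 13. The means in the authors' deposited table were 18.06 (ASO) and 18.71 (CRO), a log2 ratio of -0.05 with p = 1 and adjusted p = 1. The limma difference was -0.05 ± 0.47 (SE), with an unadjusted 95% interval from -1.15 to 1.05 and an adjusted p of 0.97. That interval, which rests on the spread between libraries, includes changes of either sign.

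miR-125b-2-3p, the passenger strand of Mir125b-2, had 4.304 and 0.7033 normalized counts in ASO libraries a and b. Its CRO values were 8.953 and 8.982. Both CRO libraries were higher than both ASO libraries, so it was the 1 member of 4 whose groups did not overlap. Groups did not overlap for 33.6% of all 1073 miRNAs, and for 14% with ASO the lower. The reads numbered 7 and 1 in ASO and 7 and 5 in CRO. The authors' deposited table gave means of 2.504 and 8.967, a log2 ratio of -1.84 with p = 0.208 and adjusted p = 1. Summed over libraries, 8 reads stood against 12, a scaled ratio of ASO over CRO of 0.293 with a 95% counting interval from 0.104 to 0.779. That interval covers counting error only, not the spread between samples. With a base mean of 5.736 it lay below the minimum of 10. In a limma fit with no such minimum the difference was -1.73 ± 0.78 (SE), with an unadjusted 95% interval from -3.32 to -0.14. The unadjusted p of that fit was 0.034 and the adjusted p 0.57. Without ASO library a this difference was -2.55, and without ASO library b it was -0.91.

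**Figure D2:**
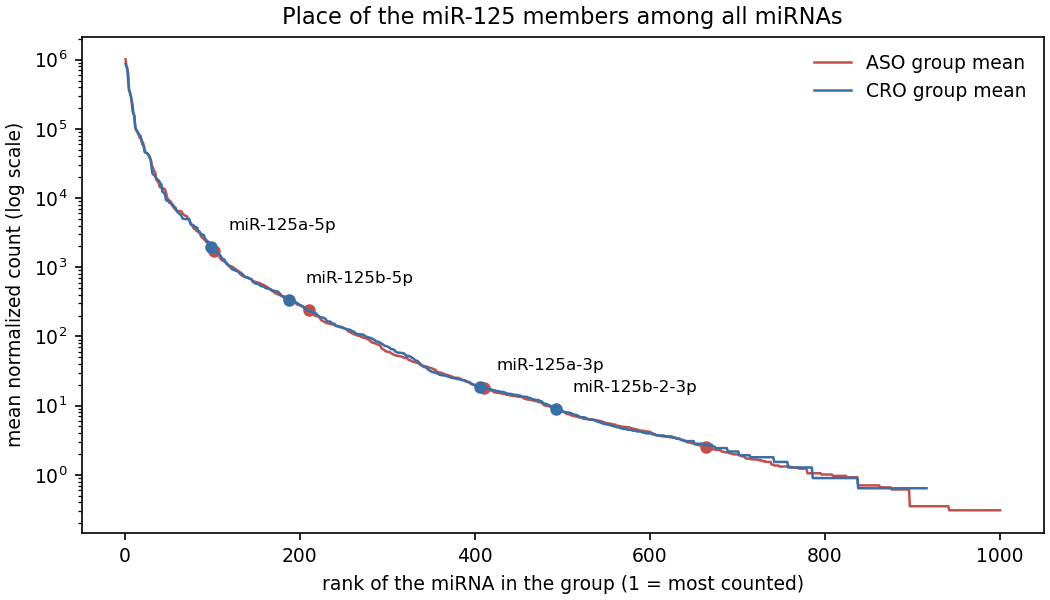
Authors' mean normalized count (log axis) of each of 1073 miRNAs against its rank in ASO and in CRO, with the miR-125 members marked. miR-125a-5p stands at rank 102 in ASO and 99 in CRO, and miR-125b-2-3p at rank 664 and 493.

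By reads, the a copy outnumbered the b copy in all 4 libraries. Reads of miR-125a-5p exceeded those of miR-125b-5p 6.71-fold and 7.64-fold in ASO libraries a and b. For CRO the excess was 5.39-fold and 5.96-fold. Both ASO ratios were above both CRO ratios. Because both miRNAs are read in the same library, the scaling between libraries cancels in this ratio. On the log2 scale the ratio was 2.84 ± 0.13 in ASO and 2.50 ± 0.10 in CRO (SD, n = 2 each). The difference of 0.34 had a two-sided exact permutation p of 0.333, the smallest that 2 samples against 2 allow. Leaving out each library in turn, or adding a pseudocount, gave differences from 0.245 to 0.431.

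As a share of the 5p reads of both copies, miR-125a-5p held 87% (exact binomial 95% interval 85.9% to 88.1%) and 88.4% (87.1% to 89.6%) in ASO libraries a and b. The CRO shares were 84.3% (82.3% to 86.3%) and 85.6% (83.8% to 87.3%). The interval of ASO library a overlapped those of both CRO libraries, and that of ASO library b overlapped that of CRO library b. With miR-351-5p added, the 3 miRNAs of this seed were composed of miR-125a-5p at 79.4% to 83.2%, miR-125b-5p at 10.9% to 14.7% and miR-351-5p at 5.46% to 7.1%. The lowest miR-125b-5p share was in ASO library b and the highest in CRO library a.

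**Figure D3:**
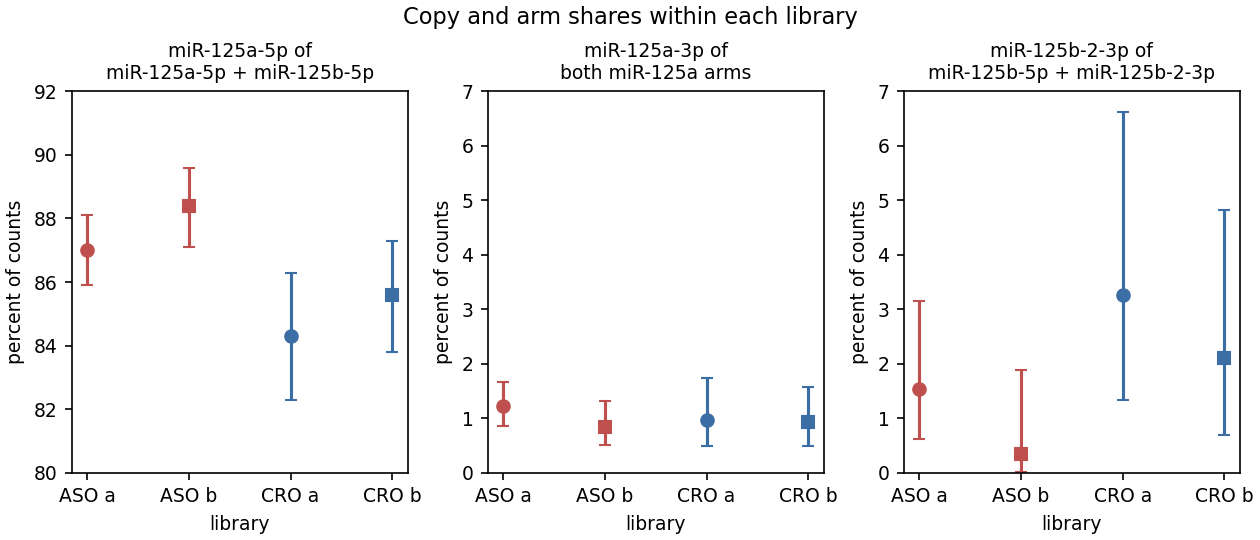
Percent of reads per recovered library with exact binomial 95% intervals, for miR-125a-5p among the 5p reads of both copies (axis from 80 to 92), for miR-125a-3p among reads of both miR-125a arms, and for miR-125b-2-3p among its reads plus miR-125b-5p. The a copy holds 84.3% to 88.4%, and the 3p arms hold at most 3.27%.

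Reads of the 5p arm dominated those of the Mir125a hairpin. miR-125a-5p exceeded miR-125a-3p 81.1-fold and 118-fold in ASO libraries a and b. In CRO libraries a and b the excess was 101-fold and 107-fold, which lies between the ASO libraries. The log2 difference of this arm ratio, ASO minus CRO, was -0.09, with a two-sided exact permutation p of 1. The 3p arm made up 1.22% (0.859% to 1.67%) and 0.841% (0.507% to 1.31%) of miR-125a reads in ASO, and 0.977% (0.489% to 1.74%) and 0.927% (0.495% to 1.58%) in CRO. All 4 intervals overlapped.

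miR-125b-5p exceeded miR-125b-2-3p 63.9-fold and 293-fold in ASO libraries a and b. For CRO the excess was 29.6-fold and 46.6-fold. This is not an arm ratio of 1 hairpin, since the 5p reads come from 2 genes and only 1 of the 3p arms was measured. Both ASO ratios were the higher, with a log2 difference of 1.88 and a two-sided exact permutation p of 0.333. The ASO value of 293-fold rested on 1 read of miR-125b-2-3p, and leaving out single libraries gave log2 differences from 0.783 to 2.98. As a share, miR-125b-2-3p held 1.54% (0.622% to 3.15%) and 0.34% (0.00861% to 1.88%) in ASO. It held 3.27% (1.33% to 6.62%) and 2.1% (0.686% to 4.83%) in CRO. All 4 of these intervals overlapped.

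The 4 members together held 0.0343% and 0.0243% of all counts in ASO libraries a and b. The CRO shares were 0.0239% and 0.0497%. The lowest and the highest share were both CRO, and the means of 0.0293% in ASO and 0.0368% in CRO gave a two-sided exact permutation p of 1.

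miR-351-5p, the X-linked miRNA with the seed of miR-125a-5p and miR-125b-5p, had 122.4 and 112.5 normalized counts in ASO libraries a and b. The CRO libraries a and b gave 104.9 and 222.8. As for miR-125a-5p, the lowest and the highest library were both CRO. The authors' deposited table gave a log2 ratio of -0.48 (p = 0.599, adjusted p = 1), and the limma difference was -0.38 ± 0.38 (SE, adjusted p 0.77). The limma difference was -0.92 with an adjusted p of 0.025 without CRO library a, and 0.16 without CRO library b. The fit without CRO library a called 13.1% of the 482 miRNAs. miR-351-3p, from the other arm, had 6 and 5 reads in ASO and 1 and 0 in CRO. Scaled, these were 3.689 and 3.517 normalized counts in ASO and 1.279 and 0 in CRO. The authors' deposited table gave it a log2 ratio of 2.49 with p = 0.515. In the limma fit with no minimum its difference was 1.61 ± 1.02 (SE, adjusted p 0.78).

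Genes that lie with a miR-125 gene were followed next, since they may share its primary transcript. In GRCm38 the gap between Mir99b and Mir125a is 0.564 kb, whereas Mir100 lies 50.4 kb from Mir125b-1 and Mir99a lies 47.3 kb from Mir125b-2. Of 13 listed neighbours 10 had a row and 8 reached a base mean of 10, of which 5 had the lower mean in ASO and 3 the higher, with a median log2 ratio of -0.10. None passed the adjusted p in the authors' deposited table, and 1 of the 10, miR-99a-5p, had an unadjusted p under 0.05, against the 2.8% of all miRNAs given above. Groups did not overlap for 2 of the 8, miR-99a-5p and let-7c-5p, against 41.9% of the 482 miRNAs. miR-100-3p, miR-99a-3p and let-7c-1-3p had no row. The listed let-7c-2-3p belongs to a gene on chromosome 15, away from Mir125b-2, and is counted here only because the list held it. It is among the 3 with the higher mean in ASO, at a log2 ratio of 0.22. Its counts equalled those of let-7a-1-3p in every library, so its reads cannot be assigned to 1 gene.

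Beside Mir125a, let-7e-5p, a member of the let-7 family of differentiation miRNAs, had 2504 and 2683 normalized counts in ASO and 2500.0 and 2617 in CRO. All 4 libraries lay close together, with a log2 ratio of 0.02 (limma 0.02 ± 0.22, SE, adjusted p 0.98). miR-99b-5p, of the miR-99/miR-100 family, had 435.3 and 462.8 in ASO and 418.2 and 616.2 in CRO. It was highest in CRO library b, with a log2 ratio of -0.20 (limma -0.18 ± 0.27, SE, adjusted p 0.83). The passenger strands were scarce: miR-99b-3p had 28.9 to 61.08 normalized counts and a log2 ratio of -0.39, and let-7e-3p had a base mean of 5.384. By normalized counts the 3 guide strands of this cluster stood apart, let-7e-5p above miR-125a-5p above miR-99b-5p in all 4 libraries.

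Beside Mir125b-2, miR-99a-5p had 107 and 102.7 normalized counts in ASO libraries a and b. The CRO libraries a and b gave 197 and 179.6. Both CRO libraries were above both ASO libraries, and the libraries of each group lay close together. The authors' deposited table gave a log2 ratio of -0.84 (p = 0.0386, adjusted p = 1). The limma difference was -0.84 ± 0.26 (SE), with an adjusted p of 0.20. Without CRO library b it was -0.90 with an adjusted p of 0.045, in a fit that called 6.43% of the 482 miRNAs. let-7c-5p, whose reads come from more than 1 gene, had a log2 ratio of -0.11.

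Beside Mir125b-1, miR-100-5p had 23.37 and 14.77 normalized counts in ASO and 17.91 and 8.982 in CRO, with overlapping groups and a log2 ratio of 0.50 (limma 0.51 ± 0.51, SE, adjusted p 0.77). miR-100-5p differs from miR-99a-5p at 1 base and both carry the seed shown in capitals, so reads with an error at that base could be counted for the other.
miR-99a-5p: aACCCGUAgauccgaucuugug
miR-100-5p: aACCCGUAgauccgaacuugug
miR-99b-5p: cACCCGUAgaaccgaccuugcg
let-7a-5p, made from several genes, had a log2 ratio of -0.09, and let-7a-2-3p had 1 read in ASO library a and none in the other libraries. Both neighbours made only beside Mir125b-1, miR-100-5p and let-7a-2-3p, were thus at low counts.

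**Figure D4:**
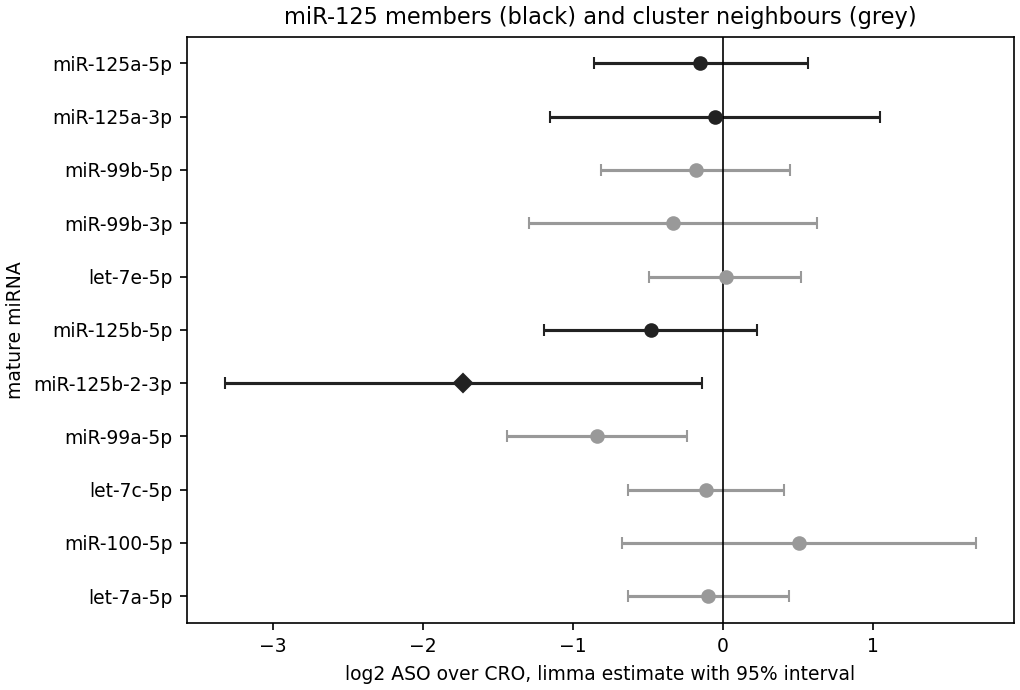
Limma log2 difference of ASO over CRO with unadjusted 95% intervals for the miR-125 members (black) and their neighbours (grey), circles from the fit of miRNAs with a base mean from 10 upwards and the diamond, miR-125b-2-3p, from the fit with no minimum. The intervals of miR-125a-5p, miR-125a-3p and miR-125b-5p include 0. That of miR-125b-2-3p, on 1 to 7 reads per library, runs from -3.32 to -0.14 with an adjusted p of 0.57. That of miR-99a-5p runs from -1.44 to -0.24 with an adjusted p of 0.20.

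For miR-125a-5p, miR-125b-5p and miR-125a-3p the CRO libraries differed from each other by more than the group means did. From CRO library a to library b, the log2 ratio was 0.81 for miR-125a-5p, 0.66 for miR-125b-5p and 0.69 for miR-125a-3p, and it was higher than in 90.2%, 86.5% and 88.2% of the 482 miRNAs. miR-351-5p moved by 1.08 and miR-99b-5p by 0.56, whereas let-7e-5p moved by 0.07 and miR-99a-5p by -0.13. Between the same libraries the naive T cell markers moved by 0.89 (miR-150-5p), 0.55 (miR-342-3p) and 0.31 (miR-181a-5p). The activation markers did not move together, at -1.07 for miR-21a-5p, -0.35 for miR-146a-5p and 0.04 for miR-155-5p. Of the erythroid list, miR-486a-5p moved by 0.89, miR-144-3p by -0.05 and miR-451a by -0.32. A rise of that size was thus not particular to the naive markers. The naive list was likewise highest in CRO library b, at 6.36% against 3.01% in CRO library a, and the part of the naive and activated cell content in the members' levels was not tested. In bulk samples fewer cells of a type and less RNA per cell cannot be told apart.

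The pattern over the 4 libraries was compared by the Euclidean distance between log2(normalized count + 1) values, each centred on its own mean, over 479 other miRNAs that reached a base mean of 10. The nearest to miR-125a-5p were miR-503-3p (distance 0.12), miR-127-3p (0.13) and miR-1934-5p (0.14), where the median distance was 0.89. The nearest to miR-125b-5p were miR-324-3p (0.08), miR-1198-5p (0.09) and miR-18a-3p (0.12), where the median was 0.99. miR-125a-5p and miR-125b-5p lay 0.38 apart. The naive marker miR-150-5p was the 22nd nearest to miR-125a-5p (0.27) and the 6th nearest to miR-125b-5p (0.19). Among neighbours, miR-99b-5p was nearer to miR-125a-5p (0.29) than let-7e-5p was (0.60), and miR-99a-5p lay 0.71 from miR-125b-5p. With 4 libraries that share their size factors, these distances only describe these samples.

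**Figure D5:**
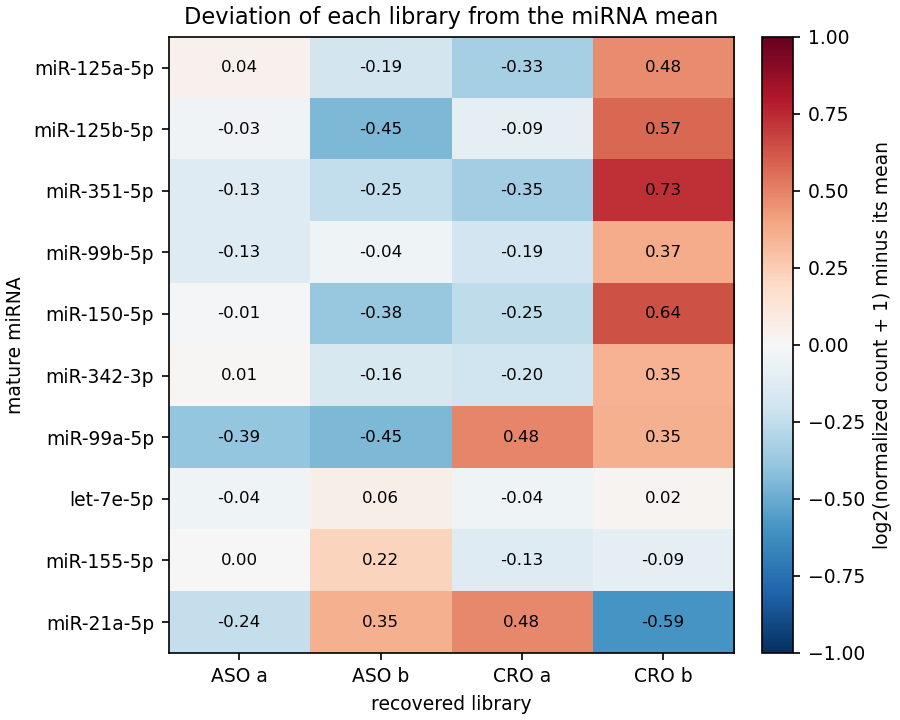
Log2(normalized count + 1) in each recovered library, centred on the mean over the 4 libraries, for miR-125a-5p, miR-125b-5p and miRNAs set beside them. miR-125a-5p runs from -0.33 in CRO library a to 0.48 in CRO library b, and miR-125b-5p from -0.45 in ASO library b to 0.57 in CRO library b.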

How the data were processed

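Small RNA of 2 ASO and 2 CRO samples was extracted with Trizol and made into libraries with the Illumina TruSeq small RNA kit, per the labels' protocols. DESeq (version not given) and the mm9 build appear in the submitters' processing notes. No aligner or miRNA annotation is given in the sources used here. Per the file headers, the deposited table holds the authors' normalized signal (base mean, overall and by group), the ratio of groups and its log2, and raw and adjusted p-values. The authors' fold and log2 values are CRO over ASO and were turned to ASO over CRO. For 843 miRNAs with a finite log2, the value recomputed from the group means differed by at most 9.8e-15.

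The planned count test was set for deposited counts, which the table does not hold. The fallback of the design was therefore used: the authors' p-values adjusted over the whole deposited table, threshold 0.05. Counts per library were recovered as whole numbers whose scaled sum gives the deposited group mean, within a relative tolerance of 1e-14 (4e-15 where several solutions were found), set after residuals were seen. 1 miRNA, miR-155-5p, needed the further condition that size factors recomputed as median ratios over 636 miRNAs match the recovered ones. The largest relative difference was then 1.9e-15. The ASO size factors were 1.626 and 1.422, the CRO ones 0.7819 and 0.5567. Within a group, the libraries' counts differed beyond counting error (chi-square per degree of freedom 147.5 for ASO, 279.8 for CRO), and each was counted as a sample.

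limma 3.58.1 (R 4.3.3), with its trend and robust settings, was fitted to log2(normalized count + 1) of the recovered libraries for miRNAs whose base mean reached 10. Folds on that scale understate changes of low miRNAs. The recovery and the fit were tested on simulated data. Both counts were recovered for 100% of simulated miRNAs in each group. The limma fit found 96.5% of 200 simulated 4-fold changes among 482 miRNAs, with 7 false calls. Smaller changes were not simulated. Ratios and shares were tested by exact permutation over samples. Poisson and binomial intervals cover counting error only, whereas the limma intervals rest on the spread between libraries. No molecular identifiers are given. Python 3.11.15, numpy 2.4.6, pandas 2.3.3 and scipy 1.17.1 were used for the rest. Sequences are from RefSeq (GRCm38.p6) and host genes from GENCODE M21. The deposited table has no coordinates.

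Members and lists were chosen with earlier results of these data known. Named were all members, their listed gene neighbours, miRNAs that share a member's seed, the 3 nearest in pattern to each of miR-125a-5p and miR-125b-5p, and marker miRNAs. Alternatives were other pseudocounts, minimum values and scalings, another threshold, and leaving out each library.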

Additional observations from a re-analysis of the deposited data

How the results depend on the processing

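The number of members called was 0 in each of 12 alternatives, of the authors' deposited p-values and of limma. With limma's unadjusted p under 0.05, 1 of 4 members passed with no minimum (miR-125b-2-3p, against 7.64% of all 1073 miRNAs). Without CRO library a 1 of 3 passed (miR-125b-5p, against 32% of 482), and 0 of 3 when all libraries and the minimum of 10 were kept (against 12.2%). Leaving out single libraries gave limma log2 ranges that crossed 0 for miR-125a-5p (-0.55 to 0.26), miR-125a-3p (-0.42 to 0.31), miR-99b-5p (-0.46 to 0.10), miR-99b-3p (-0.79 to 0.12), let-7e-5p (-0.03 to 0.07) and miR-351-5p (-0.92 to 0.16). These fits assume that the lone library left in a group varies like those of the other group. Leaving out single libraries gave 0 to 1 neighbours called, the 1 of 8 being miR-99a-5p without CRO library b, a fit that called 6.43% of 482 miRNAs. Upper quartile scaling turned miR-125a-3p to 0.04, and scaling by library totals turned let-7e-5p to -0.04. The miR-125a arm ratio difference became 0.304 with a pseudocount of 10, which is of the size of the 3p counts. The cause of the other shifts was not tested.

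Over all miRNAs, the authors' deposited table called 12 lower and 1 higher in ASO. An unadjusted p under 0.05 with at least a 2-fold difference called 17 lower and 4 higher of 1073. limma with a base mean of at least 50 called 10 lower and 0 higher of 323. At an unadjusted p under 0.05 that fit had 21 higher. Leaving out single libraries gave 4 to 32 lower and 0 to 31 higher. edgeR and DESeq2 fits were not run. They were planned for deposited counts, which the table does not hold, and the recovered counts were fitted with limma only. The miR-125b ratio was run with miR-125b-2-3p alone. It was not run with miR-125b-1-3p alone or with both 3p arms summed, because miR-125b-1-3p has no row. No paired analysis was possible because the recovered libraries carry no replicate number. miR-125b-2-3p was also fitted without each library and with no minimum, chosen after seeing the data, and gave -2.55 to -0.91. Depth limits both 3p members most, at 1 to 37 reads per library.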
